A study of Mus musculus with 6 samples.

Results

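The genes described here are 10 genes of the kidney vasculature: Pecam1, Cdh5, Kdr, Flt1, Emcn, Plvap, Ehd3, Tek and Eng, which mark or serve endothelial cells, and Vegfa, the growth factor to which these cells respond. They were taken by gene name, and all 10 were found among the 54532 genes of the deposited tables. Kidney RNA had been sequenced from 3 WT C57BL/6J mice and 3 Trpm2-/- mice (labelled TRPM2-KO), all with cisplatin-induced acute kidney injury (AKI), 72 h after 18 mg/kg cisplatin, with no untreated group. The Trpm2-/- allele has a deletion of exons that encode part of the membrane-spanning region of the channel, and the mice carry it in every cell type, not in endothelium alone. The labels give an age of 6 to 8 weeks for all 6 mice, while the study's methods name an older range and male mice. Libraries were numbered 1, 2 and 3 for WT and 1, 2 and 4 for Trpm2-/-, and the total reads counted on genes ran from 14053307 to 17150089.

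Blood reaches the renal cortex through glomerular capillaries, whose endothelium is perforated by open fenestrae, and then passes to peritubular capillaries, whose fenestrae are closed by diaphragms built from the Plvap protein. Podocytes and tubule cells secrete VEGF-A, which binds the receptors encoded by Kdr (VEGFR2, the main signaling receptor) and Flt1 (VEGFR1, which binds the ligand tightly and also exists as a soluble trap). A second receptor system, Tie2 (Tek) and its angiopoietin ligands, stabilizes the vessel wall, and endoglin (Eng) is a co-receptor for ligands of the TGF-beta family. Loss of peritubular capillaries after AKI is a known feature of injured kidneys.

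All 10 genes passed the filter on low counts and were detected in every library, with at least 43 counts (Tek in Trpm2-/- replicate 1). CPM denotes counts scaled to the library size after TMM, while FPKM, as the authors deposited it, is per gene length and relative to a different library total, without TMM. Trpm2 itself had 5, 5 and 27 reads in WT and 10, 16 and 20 in Trpm2-/- libraries, and since a gene-level count includes the exons that remain in the allele, it does not check the labels. For these genes, 1 library stood apart. Over all genes tested, the median of Trpm2-/- replicate 4 over the mean of replicates 1 and 2 was 0.988. Trpm2-/- replicate 4 had the highest level of all 6 libraries for 8 of the 10 genes, against 19.2% of the 15816 genes tested, and it exceeded 3 times the mean of Trpm2-/- replicates 1 and 2 for 4 of the 10, against 2.06% of the genes tested. These comparisons were chosen after the values were seen. Differences of the 10 genes are therefore given with and without that mouse. Since it was singled out for high levels of these genes, leaving it out lowers their fold changes by that choice. The counts of the mitochondrial genome also took 7.91% to 11% of reads in Trpm2-/- libraries against 4.43% to 4.72% in WT libraries, and leaving these genes out changed the call of none of the 10 genes.

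The upstream regions of 3 of the genes are shown because they differed in how much their level rose in Trpm2-/- replicate 4, namely 5.54 times the mean of the other Trpm2-/- mice for Kdr, 5.28 times for Emcn and 2.36 times for Flt1. Each is the 250 bases before the RefSeq transcription start in GRCm38.p6, written 5′ to 3′ on the gene's own strand. Capitals mark GGAAG or its reverse complement, 1 form of the letters that ETS-family factors of endothelial cells read. Other forms were neither marked nor counted. Kdr lies at chr5:75978456-75978705 on the minus strand, Flt1 at chr5:147726012-147726261 on the minus strand and Emcn at chr3:137340828-137341077 on the plus strand.
Kdr: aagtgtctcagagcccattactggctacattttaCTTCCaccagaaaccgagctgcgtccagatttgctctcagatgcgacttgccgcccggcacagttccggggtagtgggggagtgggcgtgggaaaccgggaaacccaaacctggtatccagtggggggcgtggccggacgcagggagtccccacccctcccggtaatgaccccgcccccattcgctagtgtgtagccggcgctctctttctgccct
Flt1: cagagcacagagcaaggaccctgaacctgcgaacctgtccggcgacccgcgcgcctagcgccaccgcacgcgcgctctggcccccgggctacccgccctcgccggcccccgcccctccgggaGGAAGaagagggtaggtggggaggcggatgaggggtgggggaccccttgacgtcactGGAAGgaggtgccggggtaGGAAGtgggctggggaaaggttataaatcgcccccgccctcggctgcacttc
Emcn: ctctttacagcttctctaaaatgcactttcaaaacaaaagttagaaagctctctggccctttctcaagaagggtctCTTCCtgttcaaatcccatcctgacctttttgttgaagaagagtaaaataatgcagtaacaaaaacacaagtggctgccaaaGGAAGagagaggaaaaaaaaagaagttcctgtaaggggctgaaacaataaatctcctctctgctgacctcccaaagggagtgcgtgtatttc
The letters occurred once in the Kdr window, 3 times in the Flt1 window and 2 times in the Emcn window, without overlap. RefSeq windows were found for 7 of the 10 genes, and 5 of these (Kdr, Flt1, Emcn, Eng and Vegfa) held GGAAG on either strand, against 64.1% of all 32851 windows of this length. The windows of Ehd3 and Tek held none, and these genes had 5.47 and 4.44 times the mean of the other Trpm2-/- mice in replicate 4. For Eng and Vegfa the factors were 2.87 and 1.94. A link between these letters and the levels was not tested. ACGTG, 1 form of the hypoxia-response letters, was found in 0 of the 7 windows and in 16.6% of all windows. The form GCGTG was not counted, and it can be read on 1 or the other strand of each window shown above. AGATAA was found in 1 (Vegfa) and 9.99%, and TATAAA in 1 (Flt1) and 12.4%. Flt1 and Kdr both encode VEGF receptors, and their windows differed in base composition, with 70.4% and 61.6% G or C against 40.8% in the Emcn window.

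Of the 10 genes, Plvap alone was called different between genotypes, and it was lower in all 3 Trpm2-/- kidneys. Plvap (ENSMUSG00000034845, chromosome 8, 71497765 to 71511752) had 35.0, 73.4 and 58.9 CPM in WT replicates 1, 2 and 3. It had 8.14, 5.67 and 9.34 CPM in Trpm2-/- replicates 1, 2 and 4. The groups did not overlap, and the lowest WT mouse was 3.75 times the highest Trpm2-/- mouse. Means were 55.8 ± 19.4 CPM in WT and 7.72 ± 1.87 CPM in Trpm2-/- kidneys (SD, n = 3), a 7.21-fold lower level in the fit. The log2 fold change, Trpm2-/- minus WT, was -2.85 (standard error, SE, 0.288, 95% interval -3.49 to -2.20, adjusted p = 0.00126 by the edgeR quasi-likelihood test adjusted over all genes). At this threshold 7.28% of the genes tested were lower and 4.74% higher in Trpm2-/- kidneys, and 1 of 10 and 0 of 10 are the matching counts here. Of all genes tested, 16.8% were lower in Trpm2-/- mice without overlap. Without Trpm2-/- replicate 4 the log2 fold change of Plvap was -2.99 (SE 0.331, adjusted p = 0.00177 by edgeR). In bulk tissue, fewer cells of a type and less RNA per cell cannot be told apart. Exons of Plvap overlap no other annotated gene, and no 75-base stretch of them is shared with a second gene.

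**Figure D1:**
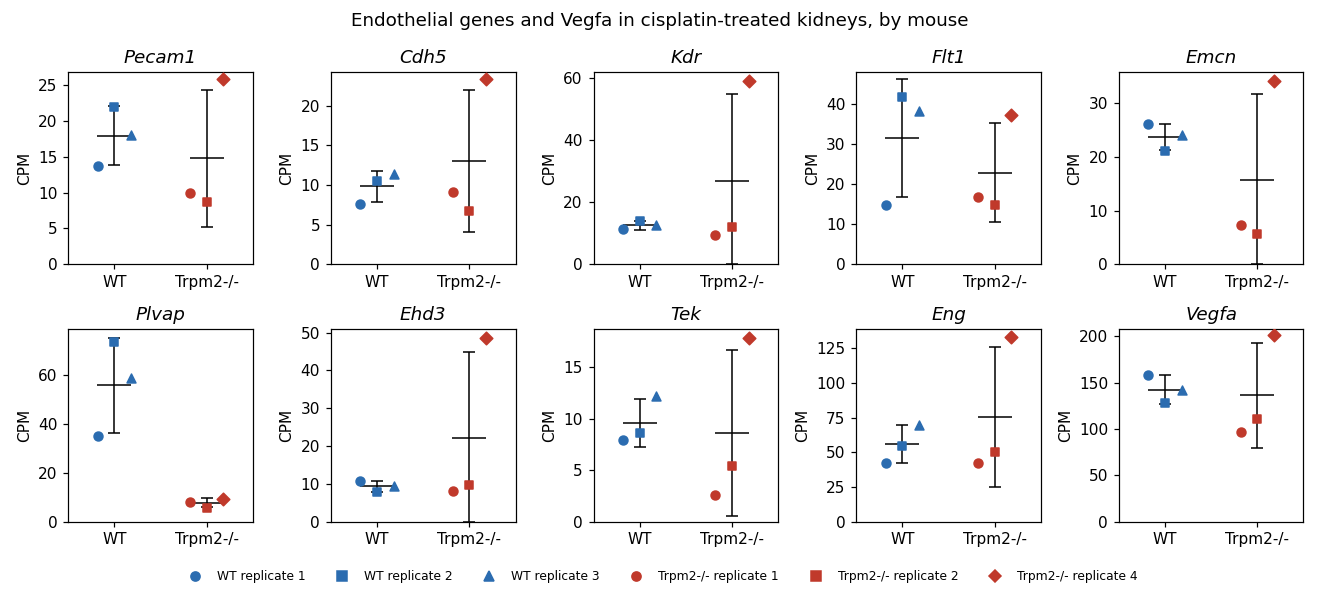
CPM of each of the 10 genes (linear axes from 0) in the 3 WT (blue) and 3 Trpm2-/- (red) kidneys, with 1 symbol per mouse, the mean as a horizontal line and the SD as bars, drawn no lower than 0. Plvap is 35.0 to 73.4 CPM in WT and 5.67 to 9.34 CPM in Trpm2-/- kidneys, and the red diamond, Trpm2-/- replicate 4, is the highest point for 8 of the 10 genes.

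Emcn encodes endomucin, a sialomucin on the surface of capillary and venous endothelium (chromosome 3, 137341067 to 137432185). It had 26.1, 21.2 and 24.1 CPM in the WT mice and 7.28, 5.67 and 34.2 CPM in Trpm2-/- replicates 1, 2 and 4. A pair of Trpm2-/- mice thus lay below every WT mouse, while the third lay above all of them. Over all 6 libraries the log2 change was -0.60 (with SE 0.553 and adjusted p = 0.526 by edgeR). Without Trpm2-/- replicate 4 it was -1.86 (SE 0.212, adjusted p = 0.00192 by edgeR), a level 3.64-fold lower than in WT. The call on Emcn therefore rests on whether that mouse is included.

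Pecam1 and Cdh5 encode adhesion proteins of endothelial junctions, and Pecam1 is also present on platelets and leukocytes. Pecam1 (chromosome 11, 106654217 to 106750628) had 13.8, 22 and 18.1 CPM in WT and 9.98, 8.67 and 25.8 CPM in Trpm2-/- libraries, with a log2 change of -0.27 (with SE 0.382 and adjusted p = 0.689 by edgeR). Cdh5 (VE-cadherin, chromosome 8, 104101625 to 104144511) had 7.59, 10.5 and 11.4 CPM in WT and 9.06, 6.76 and 23.3 CPM in Trpm2-/- libraries, with a log2 change of 0.41 (with SE 0.412 and adjusted p = 0.561 by edgeR). The groups overlapped for both. Without Trpm2-/- replicate 4, Pecam1 was lower by 0.93 on the log2 scale (-0.93, adjusted p = 0.0387 by edgeR), and Cdh5 turned to -0.30 (adjusted p = 0.502). In 0.46% of its 75-base windows Pecam1 shares sequence with other genes.

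Neither VEGF receptor was called. Kdr (chromosome 5, 75932827 to 75978458) had 11.2, 14.1 and 12.5 CPM in WT and 9.30, 11.9 and 58.9 CPM in Trpm2-/- libraries, so that a single mouse carried the difference of the means. Its log2 change of 1.08 (with SE 0.587 and adjusted p = 0.262 by edgeR) became -0.24 (adjusted p = 0.509) without that mouse. Flt1 (chromosome 5, 147561604 to 147726011) had 14.7, 41.8 and 38.3 CPM in WT and 16.8, 14.7 and 37.2 CPM in Trpm2-/- libraries. Each genotype held both low and high mice for Flt1, and WT replicate 1 was at the level of Trpm2-/- replicates 1 and 2. The log2 fold change of Flt1 was -0.46 (SE 0.420, adjusted p = 0.516), and -0.99 without Trpm2-/- replicate 4 (adjusted p = 0.128 by edgeR). A count over the whole gene does not separate the soluble from the membrane-bound form of Flt1.

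Vegfa (chromosome 17, 46016993 to 46032369), the ligand, had 158, 128 and 142 CPM in WT and 97.0, 111 and 201 CPM in Trpm2-/- libraries. All WT values fell between the values of the Trpm2-/- mice. The log2 fold change was -0.06 with a 95% interval of -0.62 to 0.50 (adjusted p = 0.9 by edgeR). Differences within these bounds are thus compatible with the values of 3 mice per genotype. The log2 fold change was -0.45 when Trpm2-/- replicate 4 was left out (adjusted p = 0.0957 by edgeR).

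Ehd3, a membrane-trafficking protein known in the kidney from glomerular endothelium, behaved in its values much like Kdr. Ehd3 (chromosome 17, 73804134 to 73832094) had 10.8, 7.84 and 9.45 CPM in WT and 8.08, 9.63 and 48.4 CPM in Trpm2-/- libraries. Replicates 1 and 2 of Trpm2-/- lay within the WT range, and replicate 4 was 5.47 times their mean. The log2 change was 1.24 (with SE 0.591 and adjusted p = 0.206 by edgeR), and -0.07 without replicate 4 (adjusted p = 0.874).

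Tek and Eng, receptors of the angiopoietin and TGF-beta systems, were not called either. Tek (chromosome 4, 94739289 to 94874976) had 7.90, 8.61 and 12.2 CPM in WT and 2.63, 5.39 and 17.8 CPM in Trpm2-/- libraries. As for Emcn, 2 Trpm2-/- mice were below and 1 above the WT mice, with a log2 change of -0.15 (with SE 0.557 and adjusted p = 0.892), and -1.25 (adjusted p = 0.0524 by edgeR) without replicate 4. Eng (chromosome 2, 32646595 to 32682669) had 42.5, 54.8 and 69.9 CPM in WT and 42.4, 50.5 and 133 CPM in Trpm2-/- libraries. Its log2 change was 0.44 (with SE 0.386 and adjusted p = 0.504), and -0.25 (adjusted p = 0.469 by edgeR) without replicate 4. Exons of Eng share 61 bases with Fpgs on the other strand, and reads there cannot be assigned if the counting ignored strand, which the sources used here do not give.

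**Figure D2:**
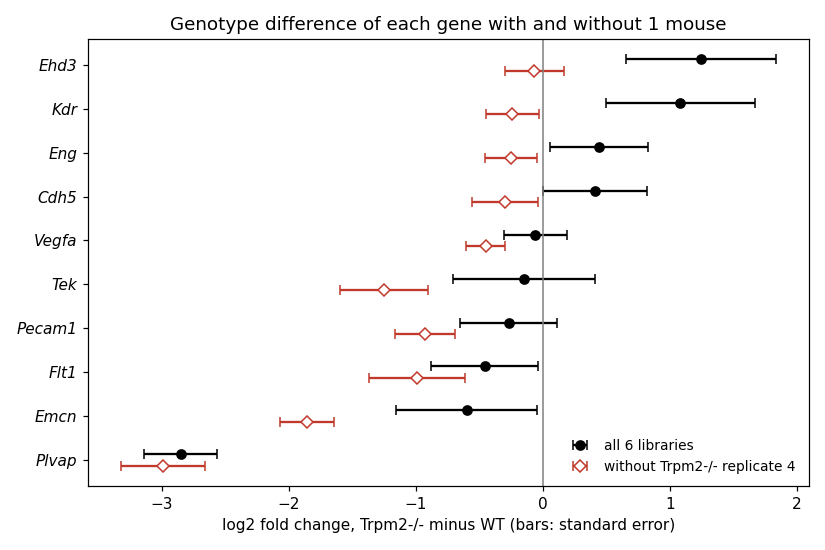
Log2 fold change of each gene, Trpm2-/- minus WT, with its standard error, from all 6 libraries (black circles) and without Trpm2-/- replicate 4 (open red diamonds). Plvap stays at -2.85 and -2.99, Emcn goes from -0.60 to -1.86, and Kdr and Ehd3 go from 1.08 and 1.24 to -0.24 and -0.07.

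The 10 genes as a list had a median log2 fold change of -0.11, with 4 above and 6 below 0, against a median of 0.02 over all genes tested. Without Trpm2-/- replicate 4 the median was -0.69, against 0.01 over all genes, with all 10 below 0. Called lower at an adjusted p under 0.05 were then 3 genes, Plvap, Emcn and Pecam1, and 0 were called higher, where 6.34% of all genes were lower and 4.81% higher. Because Trpm2-/- replicate 4 was singled out for high levels of these genes, the values without it are a description and not separate evidence. By the threshold in the study's methods (more than 1 on the log2 scale in either direction, with an unadjusted p under 0.05), 1 of the 10 genes passed with all libraries, against 7.6% of all genes. Groups did not overlap for 1 of the 10 genes, and for 33.5% of all genes tested. Replicate 4 of Trpm2-/- exceeded replicates 1 and 2 for all 10 genes, by factors of 1.35 for Plvap, 1.94 for Vegfa and 2.36 to 5.54 for the others. Plvap was thus the gene that rose least in that mouse.

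Levels were compared between genes per length, as FPKM. In WT kidneys the order was Vegfa (29.1 ± 3.15 FPKM), Plvap (24.5 ± 8.51), Eng (12 ± 2.93), Emcn (3.85 ± 0.400), Pecam1 (2.52 ± 0.576), Flt1 (2.05 ± 0.951), Cdh5 (2.04 ± 0.410), Tek (1.78 ± 0.423), Ehd3 (1.25 ± 0.199) and Kdr (1.22 ± 0.137 FPKM, SD, n = 3 each). The ranges of Vegfa and Plvap overlapped, those of Pecam1 to Tek each overlapped the next, and those of Ehd3 and Kdr overlapped, so the order within these sets was not resolved. Gaps without overlap lay between Plvap and Eng, Eng and Emcn, Emcn and Pecam1, and Tek and Ehd3. In Trpm2-/- kidneys Vegfa (28.1 ± 11.9 FPKM) and Eng (16.5 ± 11.1 FPKM) led, Plvap followed at 3.43 ± 0.852 FPKM, and from Plvap downwards every gene overlapped the next.

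**Figure D3:**
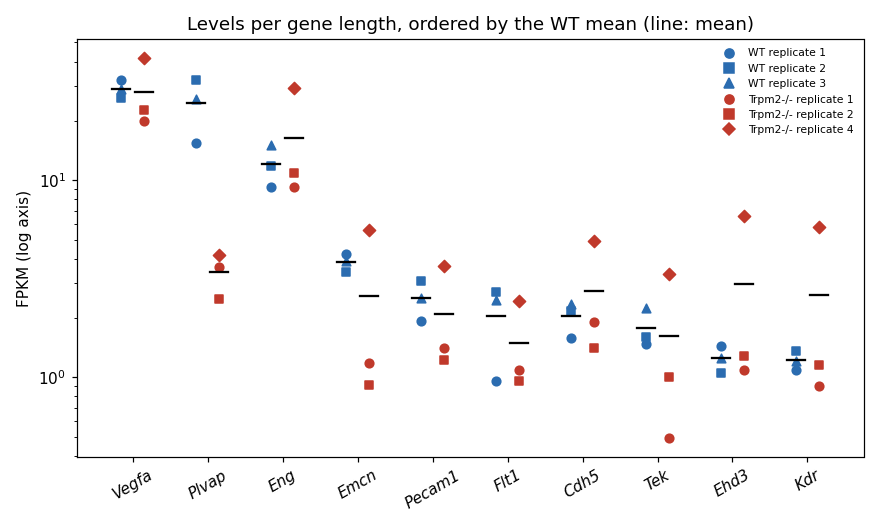
FPKM of the 10 genes on a log axis, ordered by the WT mean, with 1 symbol per mouse (WT blue, Trpm2-/- red) and the mean of each genotype as a line. Plvap is second in WT at a mean of 24.5 FPKM and lies at 3.43 FPKM in Trpm2-/- kidneys, next to genes that are less abundant in WT.

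Ratios of 2 genes within a library do not depend on how libraries are scaled, and 4 were tested with a two-sided exact permutation test, in which 3 mice against 3 cannot give a p under 0.1. The FPKM ratio of Ehd3 (glomerular) to Plvap (peritubular) was 0.0934, 0.0324 and 0.0486 in WT and 0.301, 0.515 and 1.57 in Trpm2-/- mice. All Trpm2-/- ratios were above all WT ratios, by 3.56 on the log2 scale (exact permutation p = 0.1, 0.4 adjusted over the 4 ratios). The difference was 2.90 without Trpm2-/- replicate 4 and 3.21 to 4.09 with any other mouse left out. Plvap was already known to be lower without overlap, and Ehd3 was within the WT range in Trpm2-/- replicates 1 and 2. The separation of this ratio is therefore not a result apart from that of Plvap. The ratio of Flt1 to Kdr was 0.878, 1.98 and 2.05 in WT and 1.21, 0.825 and 0.423 in Trpm2-/- mice (log2 difference -1.03, exact p = 0.2). The ratio of Vegfa to Kdr was 19.1 to 29.7 in WT and 7.21 to 22 in Trpm2-/- mice (log2 difference -0.71, exact p = 0.3), and that of Angpt2 to Angpt1, the antagonist and agonist of Tie2, was 0.527 to 1.84 and 0.403 to 1.61 (log2 difference -0.38, exact p = 0.6). For these 3 ratios the genotypes overlapped, and without Trpm2-/- replicate 4 the log2 differences were -0.62, -0.20 and -0.83.

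Other genes of the vessel wall were described from lists compiled by hand. The counts of each list stand beside 7.28% of all genes tested called lower and 4.74% called higher with all 6 libraries. Of 8 peritubular capillary genes, all tested, 3 were lower and 0 higher. They were Plvap, already counted among the 10 genes, Igfbp3, which binds insulin-like growth factors, and Lpl, the lipoprotein lipase held on capillary walls. Igfbp3 had 27.8, 120 and 111 CPM in WT and 31.95, 15.4 and 27.7 CPM in Trpm2-/- libraries (log2 fold change -1.78, SE 0.473, adjusted p = 0.0393 by edgeR). WT replicate 1 was at the Trpm2-/- level, and the call was lost without Trpm2-/- replicate 4 (adjusted p = 0.0715). Lpl was 159 ± 24.2 CPM in WT and 92.4 ± 27.3 CPM in Trpm2-/- kidneys (SD, n = 3), a log2 fold change of -0.79 (adjusted p = 0.0432). The list's median log2 fold change was -0.65, and -1.07 without Trpm2-/- replicate 4.

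Among 10 glomerular capillary genes, 9 were tested, and 1 was higher and 1 lower. The list holds Ehd3 and Emcn as well. Plat, the tissue-type plasminogen activator, rose from 165 ± 59.5 to 807 ± 261 CPM (SD, n = 3), a log2 change of 2.29 (with SE 0.305 and adjusted p = 0.00298 by edgeR). It was 877 and 1026 CPM in Trpm2-/- replicates 1 and 2 and 519 CPM in replicate 4, and so was lowest there among the Trpm2-/- mice, where Ehd3 was highest. Fabp4, a fatty acid-binding protein of capillaries and fat cells, fell from 35.5 ± 7.04 to 12.3 ± 0.768 CPM (SD, n = 3; log2 fold change -1.53, SE 0.176, adjusted p = 0.00165). Its 3 Trpm2-/- values were close, at 12.6, 11.4 and 12.8 CPM. The median of this list was 0.41, and -0.12 without replicate 4.

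Of 35 other pan-endothelial genes, all tested, 1 was higher and 0 were lower, with a median log2 fold change of -0.10. The gene called was Ramp2, the partner of the calcitonin receptor-like receptor for adrenomedullin, which rose from 13.9 ± 2.23 to 27.6 ± 2.71 CPM (SD, n = 3; log2 fold change 0.99, SE 0.169, adjusted p = 0.00696 by edgeR). With Trpm2-/- replicate 4 left out, 6 of the 35 were lower and Ramp2 was still the gene called higher, with a median of -0.72 and 30 of 35 below 0. The 6 were Tie1, Ptprb, Robo4, Clec14a, Adgrl4 and Ly6c1. Over all genes tested without that mouse, 6.34% were lower and the median was 0.01. Nos3, the endothelial nitric oxide synthase, had 9.19 ± 4.19 and 6.82 ± 3.99 CPM (SD, n = 3; log2 fold change -0.43, adjusted p = 0.594 by edgeR).

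Arterial and venous genes gave 1 call. Of 11 arterial and vasa recta genes, 10 were tested and Cxcl12, a chemokine of vessels and stromal cells, was lower. It had 61.1, 55.4 and 61.5 CPM in WT and 5.08, 9.42 and 30.7 CPM in Trpm2-/- libraries (log2 fold change -1.98, SE 0.505, adjusted p = 0.0343 by edgeR). All Trpm2-/- mice were below all WT mice, with replicate 4 closest to WT. Leaving that mouse out gave a log2 fold change of -3.03 (adjusted p = 0.00101 by edgeR), an 8.17-fold lower level. Of 10 venous and lymphatic genes 5 were tested and 0 called, and the lymphatic marker Lyve1 was among those below the filter on low counts.

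Signaling lists held few calls. Of the 10 VEGF ligands and receptors, 0 were called. Nrp1, a co-receptor of VEGF, had 42.6 ± 10.3 and 61.6 ± 5.396 CPM (log2 fold change 0.53, adjusted p = 0.0845), and Vegfc, the lymphatic ligand, 2.58 ± 0.288 and 4.52 ± 1.10 CPM (SD, n = 3; log2 fold change 0.81, adjusted p = 0.113 by edgeR), both without overlap between genotypes. Groups did not overlap for 33.5% of all genes tested. For Vegfb, Pgf, Flt4 and Nrp2 the groups overlapped, with log2 fold changes of -0.17, 0.27, 0.72 and 0.26. Of 7 angiopoietin and Tie genes 0 were called, with Angpt1 at 0.03, Angpt2 at -0.26 and Tie1 at -0.66 on the log2 scale. When Trpm2-/- replicate 4 was left out, Tie1 (-1.24, adjusted p = 0.0300 by edgeR) and Ptprb, the phosphatase that restrains Tie2, were called lower.

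Of 15 genes of BMP9-endoglin signaling 11 were tested and 1 was higher, Id3, a transcriptional target of the pathway, which rose from 99.8 ± 11.5 to 159 ± 23.8 CPM (SD, n = 3; log2 fold change 0.67, adjusted p = 0.0221 by edgeR). All 11 had log2 fold changes above 0, and 7 of the 11 without replicate 4. Of the 15816 genes tested with all libraries, 8155 were above 0. The receptor gene Acvrl1 had a log2 fold change of 0.02. Of 10 Notch genes and of 11 junction genes, all tested, 0 were called. Among endothelial activation genes, the leukocyte adhesion genes Icam1 and Vcam1 had log2 fold changes of 0.52 (adjusted p = 0.0720) and 0.47 (adjusted p = 0.306 by edgeR). The selectins Sele and Selp, which mark acutely activated endothelium, had at most 7 and 4 reads in any library and were not tested.

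Oxygen-response genes were described because Vegfa is a target of hypoxia-inducible factors. Of 17 genes, all tested, 4 were lower and 0 higher. Car9, a carbonic anhydrase, fell from 12.2 ± 4.73 to 2.62 ± 0.479 CPM (SD, n = 3; log2 fold change -2.21, SE 0.319, adjusted p = 0.00380 by edgeR). Ndrg1, Pdk1 and Pgk1 fell by 0.96, 0.76 and 0.74 on the log2 scale. Hif1a and Epas1, which encode the oxygen-regulated subunits, had log2 fold changes of 0.06 and 0.43 and were not called, and Vegfa itself was at -0.06.

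**Figure D4:**
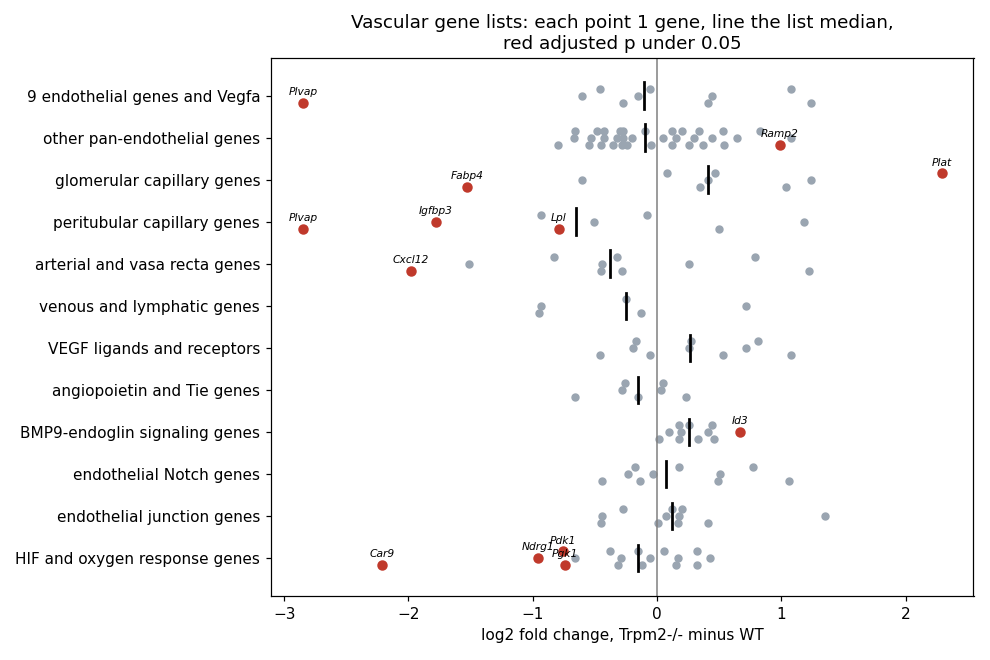
Log2 fold change, Trpm2-/- minus WT, of every tested gene in 12 vascular and oxygen-response lists, with the list median as a black line and genes at an adjusted p under 0.05 in red with their names. Genes in several lists appear once in each. Red points in the capillary lists lie on both sides of 0, with Plvap at -2.85 and Plat at 2.29.

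Markers of several other cell types were also higher in Trpm2-/- replicate 4 than in the other Trpm2-/- mice. The summed level of 7 podocyte markers was 117 to 135 CPM in WT libraries, 137 and 119 CPM in Trpm2-/- replicates 1 and 2, and 371 CPM in replicate 4. Of these 7 markers, all tested, 0 were called, and replicate 4 was highest of all 6 libraries for 6. The summed level of 10 pericyte, mesangial and fibroblast markers was 111 to 146 CPM in WT, 154 and 118 CPM in Trpm2-/- replicates 1 and 2 and 217 CPM in replicate 4. Of the 9 tested, Acta2, the smooth muscle actin, was called higher in Trpm2-/- kidneys (log2 fold change 1.46, adjusted p = 0.0467 by edgeR, and 0.0545 without replicate 4), but it was highest in replicate 1, at 41.6 CPM against 21.2 CPM in replicate 4. Markers of the thick ascending limb and distal tubule were also higher in replicate 4 than in replicates 1 and 2 for 5 of 5 tested, with sums of 1180 against 394 and 488 CPM, and with WT sums of 1420, 1090 and 2380 CPM.

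All 8 proximal tubule markers were called lower in Trpm2-/- kidneys, and 6 of them without replicate 4. Their summed levels were 2450 to 3400 CPM in WT and 636 to 1060 CPM in Trpm2-/- libraries. Among Trpm2-/- mice this sum was also highest in replicate 4, at 1060 CPM against 819 and 636 CPM in replicates 1 and 2. The 5 with the smallest p were Slc34a1, Cubn, Slc5a2, Slc22a6 and Aqp1, with log2 fold changes of -2.73, -1.39, -1.24, -1.74 and -1.88. Called lower were also 1 of 5 tested markers of the thick ascending limb and distal tubule (Umod, -1.97) and 2 of 5 collecting duct markers (Aqp2, -1.02, and Aqp3, -0.47, the latter at an adjusted p of 0.0859 by edgeR without replicate 4; 1240 to 1540 and 692 to 873 CPM). Of 10 leukocyte markers 9 were tested, and C1qa of macrophages was lower (log2 fold change -2.03, adjusted p = 0.0401 by edgeR, and 0.0787 without replicate 4), with summed levels of 101 to 121 CPM in WT and 81.2 to 108 CPM in Trpm2-/- libraries. Platelet markers summed to 12 to 17.2 CPM and 9.12 to 13.7 CPM, with Itga2b and Ppbp tested and neither called. Red cell markers summed to less than 1 CPM in every library, and none of the 5 was tested. The part of these cell types in the level of the endothelial genes was not tested.

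**Figure D5:**
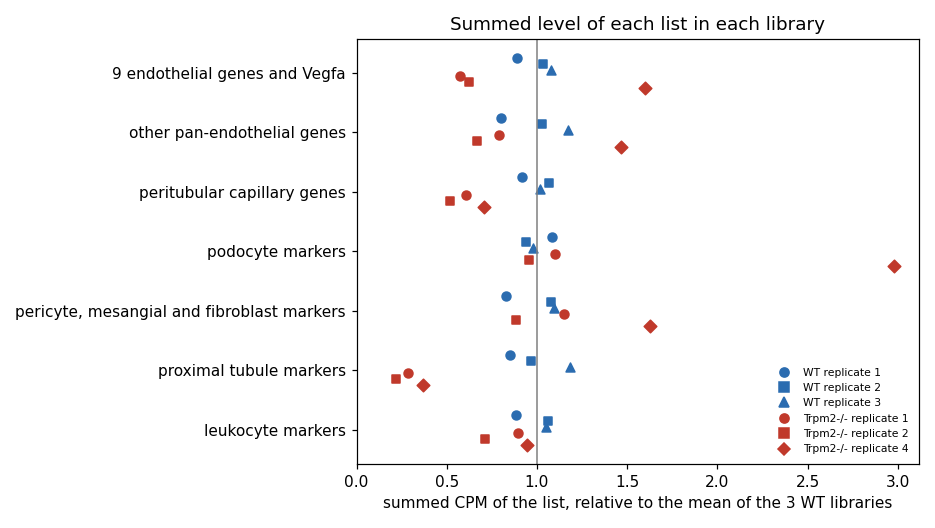
Summed CPM of 7 gene lists in each library, divided by the mean of the 3 WT libraries (linear axis from 0), with 1 symbol per mouse. Trpm2-/- replicate 4 (red diamond) lies to the right of both other Trpm2-/- mice for all 7 lists, least clearly for leukocyte markers. All 3 Trpm2-/- mice lie left of all WT mice for the proximal tubule and peritubular lists. The peritubular sum is mostly Cd36 and Lpl, and 2 of the 8 genes in that list had log2 fold changes above 0.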

How the data were processed

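Gene expression was measured by RNA-sequencing of kidneys from 3 WT and 3 Trpm2-/- mice. The authors deposited counts of reads per gene, without normalization, and FPKM values that they computed from these counts by gene length and a library total. The submitters' processing notes name HISAT2, StringTie and mm9, yet the positions of all 10 genes equal those of GRCm38 (GENCODE mouse release 21), which are given here. Strandedness is not given in the sources used here. The 10 genes and all lists were chosen with earlier results of these data known, and no list was tested as a set.

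Counts were analysed with R 4.3.3 and edgeR 4.0.16 (filterByExpr defaults with a minimum count of 10, TMM, two-sided quasi-likelihood test with genotype only, common dispersion 0.0445), with p adjusted by Benjamini-Hochberg over 15816 genes. The standard error is the absolute log2 fold change over the square root of F, and 95% intervals use the t quantile of the test. Ratios were tested by exact permutation. Total counts of 14053307 to 17150089 bound the precision. The 95% intervals rest on the variation between mice that the fit estimated, not on counting error alone. Replicate pairs of a genotype differed by more than sampling noise (chi-square per degree of freedom 14.5 to 40.9). Among Trpm2-/- mice it was 35.3 for replicates 1 and 2, 40.9 for 1 and 4 and 36.3 for 2 and 4. Nothing says that same-numbered mice share a litter or batch. DESeq2 1.42.0 and limma 3.58.1 served for alternatives. On simulated counts for the 15861 genes that passed the filter, edgeR recovered 197 of 198 genes changed 4-fold, with 11 others called. The simulation used the same dispersion for every gene and held no mouse that stood apart. It therefore checks the procedure and does not give the share of such changes that these libraries detect. Genes named are the 10, up to 5 called genes of each list by smallest p, a set of ligand, receptor and adhesion genes whatever their values, and the 5 nearest in profile; genes named beyond these (Ptprb, Robo4, Clec14a, Adgrl4, Ly6c1, Lyve1, Itga2b, Ppbp) were chosen after their values were seen. Ccl21a, with 2 identifiers, was left out, and the counts of the endothelial activation list are not reported here.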

Additional observations from a re-analysis of the deposited data

How the results depend on the processing

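Plvap was lower and called under all 17 alternatives, with log2 fold changes of -3.10 to -2.49 and adjusted p up to 0.00992. Without a filter on low counts, 2 of the 10 genes were called lower (Plvap, Emcn), 2 higher (Kdr, Ehd3) and 3 passed the study's threshold. For Kdr the log2 fold change was then 1.07 against 1.08 in the main fit, with an SE of 0.203 against 0.587. Only replicate 4 of the Trpm2-/- mice was above the WT range for Kdr and Ehd3. Apart from the fit without Trpm2-/- replicate 4, the alternatives are given without shares over all genes, so their counts lack that comparison. Leaving out 1 mouse at a time gave 1 to 3 genes called lower and 1 to 3 past the study's threshold, with 3 past it without Trpm2-/- replicate 1, 2 or 4. Over these fits the log2 fold change changed sign for Cdh5 (-0.30 to 0.72), Kdr (-0.24 to 1.49), Ehd3 (-0.07 to 1.63), Tek (-1.25 to 0.28), Eng (-0.25 to 0.72) and Vegfa (-0.45 to 0.13). For Cdh5, Kdr, Ehd3 and Eng the sign turned without Trpm2-/- replicate 4, for Tek without WT replicate 3 (0.06) or Trpm2-/- replicate 1 (0.28) or 2 (0.09), and for Vegfa without WT replicate 1 (0.01) or Trpm2-/- replicate 1 (0.13) or 2 (0.06). In the main fit 167 of the 190 other listed genes were tested and 25 were called, 8 of them the proximal tubule markers. Of all genes tested, 12% were called. The number of other listed genes called was 57 without the filter, and 15 and 13 with limma on log2(FPKM + 1) and log2(FPKM + 0.1). It was 11 to 28 with 1 mouse left out (12 without WT replicate 2, 11 without WT replicate 3). The log2 difference of Angpt2 to Angpt1 ran from -0.92 to 0.17, positive without Trpm2-/- replicate 1. In the order of levels 6 to 8 genes held their rank in WT and 4 to 8 in Trpm2-/- kidneys (6 without WT replicate 1, 5 and 4 without Trpm2-/- replicates 1 and 4). The cause was not tested.

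With the replicate number as a block, which leaves WT replicate 3 and Trpm2-/- replicate 4 without a partner and so without weight, 2 genes were called lower (Plvap, -2.88, and Emcn, -1.87), 3 passed the study's threshold, and Cdh5 (-0.19), Kdr (-0.25), Ehd3 (-0.06) and Eng (-0.06) were below 0. Deviations of same-numbered mice correlated at 0.096 (number 1) and -0.003 (number 2). Crossed pairs gave -0.025 (WT replicate 1 with Trpm2-/- replicate 2) and 0.172 (WT replicate 2 with Trpm2-/- replicate 1). With 3 mice per genotype, these values cannot decide whether same-numbered mice share a litter or batch.

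With 3 mice per genotype and 1 that stands apart for these genes, intervals for 9 of the 10 genes span 0. Changes within those intervals are compatible with the data.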

Other observations

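The profile of the 9 endothelial genes over the 6 libraries, as the mean of their log2 CPM after centring each gene, was -0.11, 0.30 and 0.36 in WT replicates 1, 2 and 3 and -0.76, -0.75 and 0.95 in Trpm2-/- replicates 1, 2 and 4. Among 14558 other genes with a mean of at least 1 CPM, the 5 nearest to it by root mean square difference on this scale were Ltbp4 (0.0812), Lhfp (0.108), Cbfa2t3 (0.118), Slc9a3r2 (0.135) and Gpr153 (0.148). Ltbp4, a binding protein of latent TGF-beta, had 7.2, 8.9 and 9.7 CPM in WT and 4.7, 4.8 and 15.4 CPM in Trpm2-/- libraries. Slc9a3r2, a scaffold protein of the NHERF family, had 23.1, 23.6 and 29.2 CPM in WT and 13.1, 15.1 and 43.6 CPM in Trpm2-/- libraries. As for Emcn and Tek, 2 Trpm2-/- mice were below and 1 above every WT mouse. These values are a description, since the libraries and their depth are shared by all genes compared.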
